A study of Sus scrofa with 67 samples.

Results

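The diet history by period interaction asks whether longissimus dorsi muscle RNA changed differently between the periods according to the diet, low in protein or standard, on which pigs had started. It is the change from LP to LP-STD minus the change from STD to STD-STD, which equals the difference between histories in the second period minus the difference between diets in the first. It uses 36 of the 67 libraries of the series, chosen by the group in the library titles: LP (n = 6), STD (n = 6), LP-STD (n = 12) and STD-STD (n = 12). Each library is read here as 1 pig, so no pig was followed from one period to the next.

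All pigs were Swiss Large White, 33 females and 34 male castrates from 20 litters, fed freely after weaning. STD pigs ate a diet of standard crude protein for the first 4 weeks, and LP pigs ate a diet whose crude protein was 81% (total) and 79% (digestible) of that level, with digestible amino acids held at requirement. In weeks 5 to 8 LP-STD pigs moved from the low protein to the standard diet, while STD-STD pigs stayed on the standard diet. Period and age move together in these groups and cannot be told apart. The labels give no litter, and the day of sampling is not in them.

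Muscle growth in a young pig depends on building ribosomes and keeping them busy. A ribosome consists of a large and a small subunit, each an RNA core with many proteins (RPL genes for the large, RPS genes for the small), and its proteins are encoded by genes spread over the genome. In mammals the translation of ribosomal protein mRNAs responds to amino acid supply through mTORC1, and a shortage of amino acids is sensed by the kinase GCN2, which acts on initiation factor eIF2 and raises the transcription factor ATF4.

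Total counts in these groups were 28871431 to 36634720 per library. The tissue label was matched by the fast fibre genes, whose 12 tested members summed to between 114600 and 161000 CPM (counts of a gene per 1000000 counted reads of the library). For the levels of single genes the library total was scaled by TMM, as described under processing. Libraries of the second period carry consecutive numbers in 3 runs of 4 per group, and these runs fall into 3 sets of 16 libraries, 1 run of each group to a set. What a run stands for is not in the labels. In the first period the library numbers were 8, 9 and 16 to 19 in LP and 10 to 15 in STD. Fits by run took each first-period library as its own run. An effect of numbering order on the first-period difference was therefore not tested. Libraries whose Y-chromosome genes summed to over 200 CPM were 4 of 6 in LP, 3 of 6 in STD, 6 of 12 in LP-STD and 6 of 12 in STD-STD.

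The interaction passed the threshold in 22 of 13517 genes tested (0.163%), of which 21 were positive (0.155%) and 1 was negative (0.0074%). The test was the quasi-likelihood F test of edgeR, and p-values were adjusted over all genes by the Benjamini-Hochberg method, with a threshold of 0.05. A positive value means that the change between periods was more positive in the low protein history than in the standard one. The 21 positive genes were 13 genes of the cytosolic ribosome, the initiation factor gene EIF2S2, the mitochondrial ribosomal gene MRPL20, and BTC, NMRK2, LTA4H, CHPT1, EXOC7 and GLRX3. The negative gene was CDHR5. At an unadjusted p under 0.05 there were 1170 genes (8.66%), 650 positive (4.81%) and 520 negative (3.85%), and 47.1% of all genes lay above 0, with a median of -0.02 (log2).

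The number of genes past the threshold depended on single libraries and runs, on the method and on a Y-linked covariate. With edgeR it was 0 when LP replicate 5, STD replicate 2 or the first run of LP-STD was left out, with 1099, 1033 and 880 genes at an unadjusted p under 0.05. It was 7, 3, 5 and 13 without LP replicates 1, 2, 3 and 6, and 2 and 14 without STD replicates 3 and 5. It was 2 and 13 without the second and the third run of STD-STD, and 9 without STD-STD replicate 4. Without libraries 8 and 9, which are LP replicates 1 and 2, it was 0, with 1017 at an unadjusted p under 0.05. With the 4 libraries of a run treated as correlated (limma voom) it was also 0, with 857 at an unadjusted p under 0.05. That fit also changed the method from edgeR, so the part of run correlation alone was not tested. Quality weights in limma voom gave 73, and DESeq2 gave 77. With Y-linked counts, used here as a measure of sex, as a covariate edgeR gave 9.

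**Figure D1:**
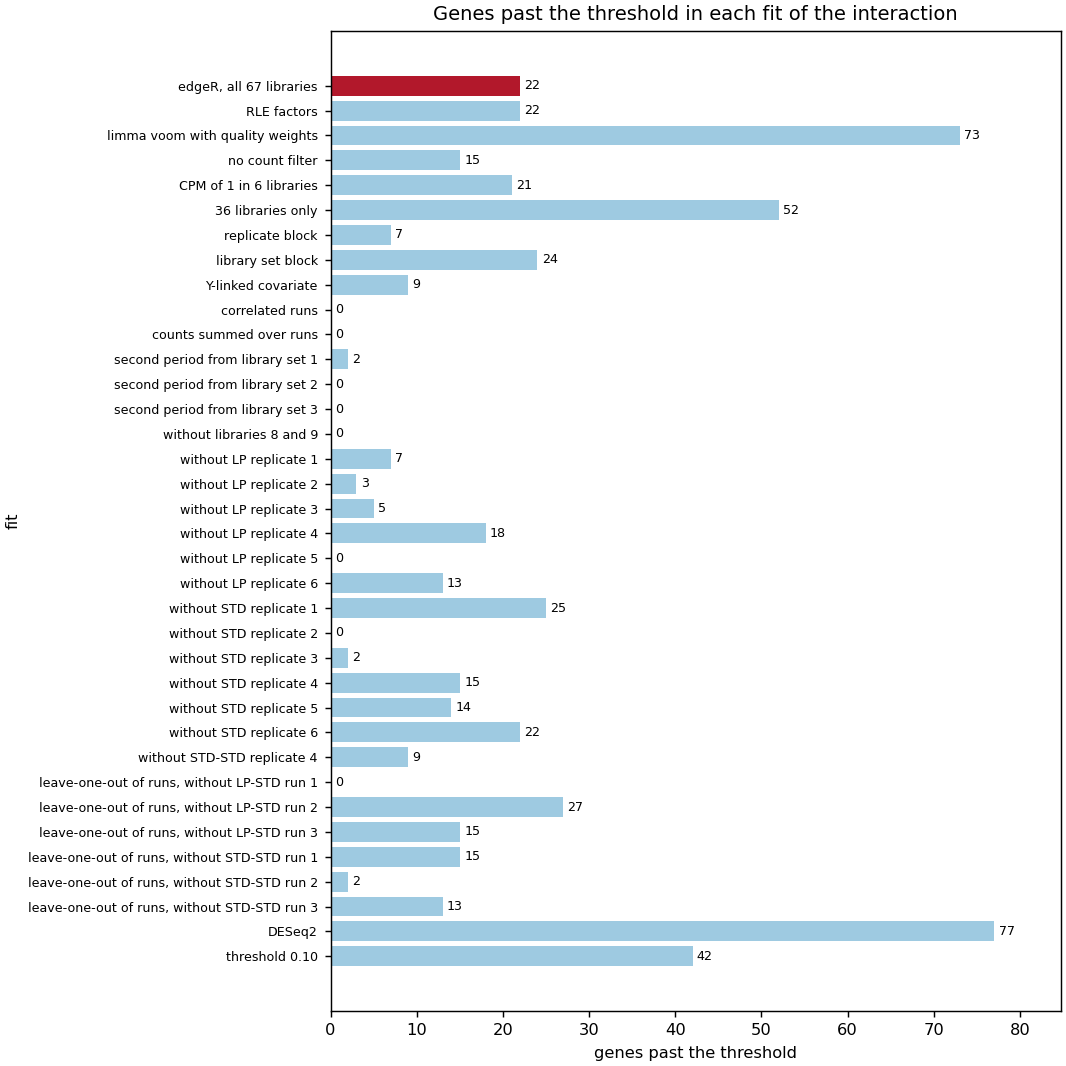
Number of genes past the threshold (x axis, count) in each fit of the interaction (y axis), as bars that start at 0. The edgeR fit with all 67 libraries, in red, gave 22 genes, and the others, in blue, lay between 0 and 77.

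The positive genes shared a shape, given here as a description because the test had selected them. All 21 had a lower mean level in LP than in STD, and 20 were higher in LP-STD than in STD-STD, NMRK2 being the exception. In 20 of them STD-STD had a lower level than STD, with CHPT1 the exception, and was higher in LP-STD than in LP in 19, with RPL10A and RPS2 the exceptions. In 17 of the 21 the decrease in the standard history was larger than the increase in the low protein history. The first-period difference made up 57.7% to 111% of the interaction, with a median of 69.5%. LP lay wholly below STD in 16 of the 21, against 0.533% of all genes, and STD-STD lay wholly below STD in 14, against 1.15%. LP-STD lay wholly above LP in CHPT1 and NMRK2, against 2.2%. LP-STD and STD-STD overlapped in every one of the 22 genes, and no gene of the 13517 had them apart (0%).

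**Figure D2:**
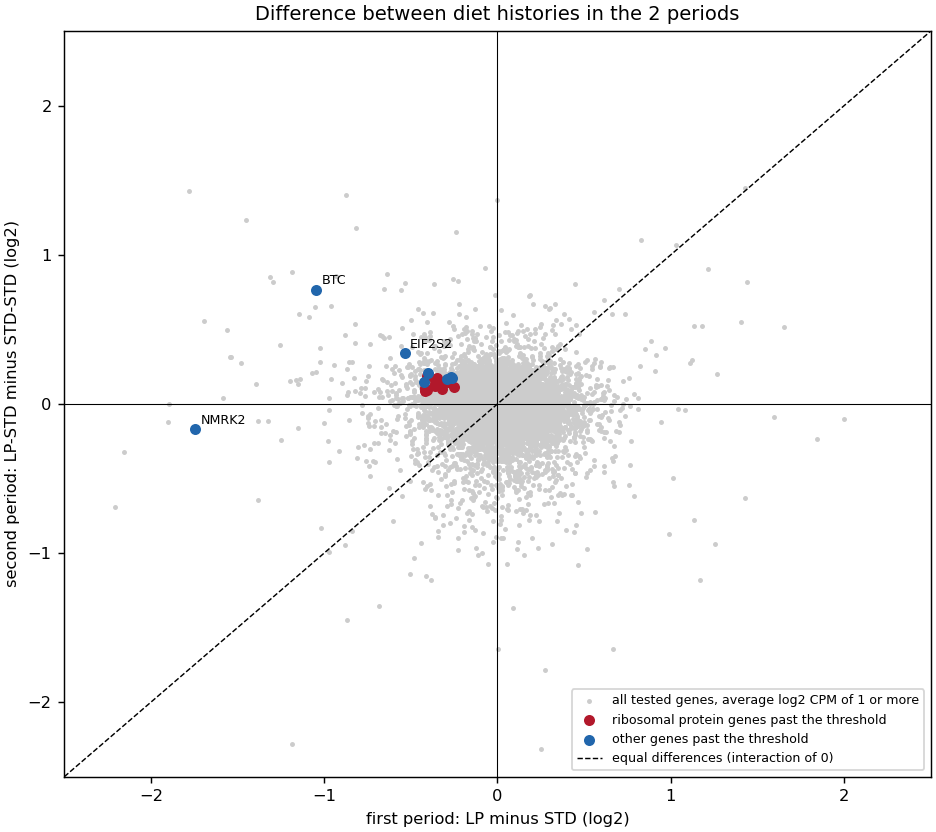
Log2 difference between diet histories in the first period (x axis, LP minus STD) and in the second (y axis, LP-STD minus STD-STD) for each tested gene with an average log2 CPM of 1 or more and both differences within the axes. Points on the dashed line have an interaction of 0. The ribosomal protein genes past the threshold, in red, sit together at upper left, with BTC, EIF2S2 and NMRK2 labelled among the others in blue.

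Ribosomal protein genes made up most of the positive set. Of 80 listed, 53 were in the count data and 48 were tested. Of these 48, 13 were positive past the threshold (background 0.155%) and 46 had an interaction above 0 (47.1% of all genes). Their median was 0.34 (log2), against -0.02 for all genes. Their median first-period difference was -0.25 and their median second-period difference 0.11. The median change from STD to STD-STD was -0.37, and the median change from LP to LP-STD was -0.03. With the second period taken from set 1, 2 or 3 alone, the median interaction was 0.46, 0.28 and 0.31. It was 0.355 without libraries 8 and 9, and between 0.31 and 0.37 when each first-period library was left out. Reads of ribosomal protein genes can be shared with their many pseudogenes, and how the authors' counting treated them is not given in the sources used here.

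RPS4X, a protein of the small subunit encoded on the X chromosome (X:58149302-58155179, Sscrofa11.1), had one of the 2 lowest p-values. Its level in LP was 303, 339 and 378 CPM (lowest, median and highest) and in STD 410, 427 and 478 CPM. In LP-STD it was 328, 370 and 439 CPM, and in STD-STD 308, 349 and 395 CPM. STD stood wholly above LP and wholly above STD-STD, while LP-STD overlapped both LP and STD-STD. The interaction was 0.50 ± 0.09 (log2 ± SE, adjusted p = 0.0146, edgeR). Its first-period difference was -0.36 ± 0.08 and its second-period difference 0.13 ± 0.05. In the fits without each first-period library it stayed between 0.46 and 0.53, with adjusted p from 0.0101 to 0.0662.

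RPL15, a large subunit protein (13:10716373-10719959), had the same adjusted p at 0.48 ± 0.09. LP ran from 196 to 223 CPM with a median of 214, and STD from 254 to 278 with a median of 268, so that a gap lay between the groups. LP-STD ran from 193 to 268 CPM with a median of 225, and STD-STD from 180 to 221 with a median of 206. STD-STD lay wholly below STD. The mean in LP-STD was 250.2 CPM in the first run, 209.2 in the second and 214.2 in the third, against 200.3, 205.5 and 205.0 CPM in STD-STD. The interaction for RPL15 was 0.67, 0.37 and 0.42 in sets 1, 2 and 3.

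Of the other large subunit genes, RPL8 (0.52 ± 0.11, adjusted p = 0.0222) and RPL12 (0.52 ± 0.11) hardly differed in mean between LP and LP-STD. For RPL8 the mean was 422 ± 39.1 CPM (SD) in LP, 424 ± 53.5 in LP-STD, 542 ± 47.0 in STD and 380 ± 29.3 in STD-STD. For RPL12 it was 175 ± 15.2 CPM in LP, 175 ± 23.6 in LP-STD, 223 ± 14.1 in STD and 156 ± 15.0 in STD-STD. The change between periods was -0.51 (log2) for RPL8 and -0.52 for RPL12 in the standard history, and 0.01 and 0.00 in the low protein history. RPL7 (0.42 ± 0.09), RPL13 (0.45 ± 0.10), RPL29 (0.50 ± 0.11), RPLP0 (0.48 ± 0.11), a protein of the stalk that binds elongation factors, and RPL4 (0.43 ± 0.10) also passed, with adjusted p from 0.0222 to 0.0425. RPL10A had the largest interaction among ribosomal genes, 0.60 ± 0.14 (adjusted p = 0.0393), with 193 ± 17.1 CPM in LP, 257 ± 34.1 in STD, 183 ± 25.5 in LP-STD and 161 ± 18.2 in STD-STD.

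In the small subunit RPS15 (0.53 ± 0.11, adjusted p = 0.0222), RPS2 (0.50 ± 0.12, adjusted p = 0.0446) and RPS3A (0.37 ± 0.09, adjusted p = 0.0446) passed beside RPS4X. RPS2 ran from 1162 to 1536 CPM in LP and from 1426 to 1875 in STD, and from 1035 to 1476 in LP-STD and 1001 to 1347 in STD-STD. Its overlap between LP and STD came from STD replicate 6, at 1426 CPM, while the other STD libraries were between 1735 and 1875. RPL5 (0.37 ± 0.09, adjusted p = 0.0801), RPS3 (0.36 ± 0.09, 0.0712), RPL36A (0.52 ± 0.13, 0.0903) and RPL37A (0.53 ± 0.14, 0.0989) had values of like size that missed the threshold. The members below 0, named after their values were seen, were RPL3 at -0.02 ± 0.18 and RPL23A at -0.05 ± 0.50.

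**Figure D3:**
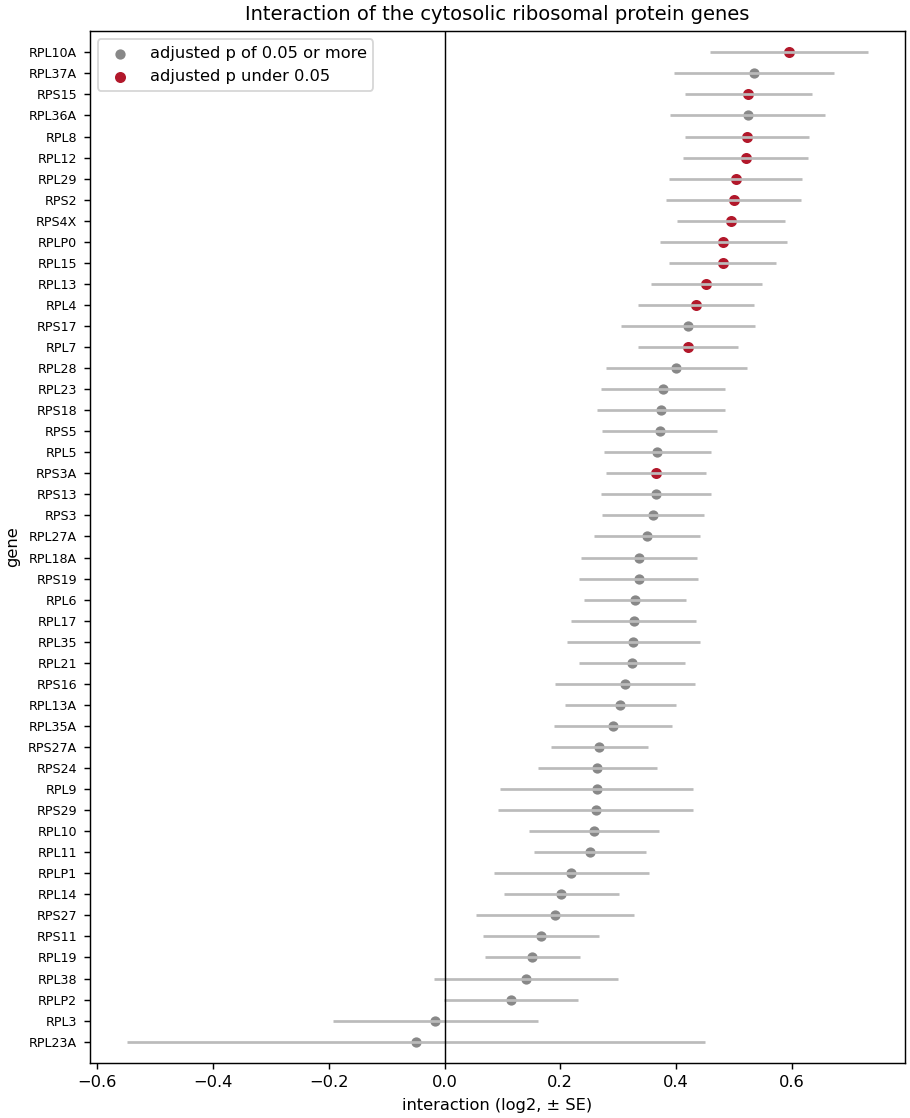
Interaction (x axis, log2, with bars of 1 SE) of the 48 tested ribosomal protein genes (y axis, ordered by value). The 13 past the threshold, in red, lie between 0.37 and 0.60, and 46 of the 48 lie above 0.

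Most translation factor genes also lay above 0. EIF2S2, the beta subunit of the eIF2 complex that brings the initiator tRNA to the ribosome (17:37551182-37570269), was the member past the threshold, at 0.87 ± 0.19 (adjusted p = 0.0268). It was 109, 175 and 220 CPM (lowest, median, highest) in LP and 166, 248 and 300 in STD, with overlap. It was 152, 226 and 293 CPM in LP-STD and 131, 172 and 242 in STD-STD. The change between periods was 0.45 (log2) in the low protein history and -0.43 in the standard history, and the order of the medians turned between the periods. Without each first-period library the interaction stayed between 0.78 and 0.97, with adjusted p from 0.014 to 0.1, and without libraries 8 and 9 it was 0.74.

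Over all genes 8.66% had an unadjusted p under 0.05 and 47.1% lay above 0. Of 32 tested initiation factor genes 1 was positive past the threshold (0.155% of all genes) and 29 lay above 0, with a median of 0.22. EIF3H (0.42 ± 0.11, adjusted p = 0.112) and EIF3I (0.44 ± 0.13, 0.189), both parts of the eIF3 scaffold, and EIF1B (0.42 ± 0.13, 0.188) missed it. Of 12 elongation and termination factor genes none passed in edgeR, 6 had an unadjusted p under 0.05 and 11 lay above 0, with a median of 0.24. EEF2, which moves the ribosome along the mRNA, was at 0.48 ± 0.13 (adjusted p = 0.119), and EEF1B2 at 0.32 ± 0.11 (0.295). Of 22 aminoacyl-tRNA synthetase genes, whose enzymes load tRNAs, none passed, 9 had an unadjusted p under 0.05 and 19 lay above 0, with a median of 0.34. KARS1 (lysine) was at 0.38 ± 0.10 (adjusted p = 0.0989), RARS1 (arginine) at 0.32 ± 0.09 (0.148), VARS1 (valine) at 0.56 ± 0.18 (0.229) and IARS1 (isoleucine) at 0.87 ± 0.32 (0.377).

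The genes for mitochondrial ribosomes and for ribosome assembly lay closer to all genes. Of 73 mitochondrial ribosomal protein genes 1 was positive past the threshold (0.155% of all genes) and 53 lay above 0 (47.1%). Their median was 0.12. The member past the threshold was MRPL20 (6:63670750-63675834), at 0.45 ± 0.11 (adjusted p = 0.0446). Its level was 19.4, 21.4 and 22.7 CPM in LP and 23.6, 25.6 and 28.4 in STD, which did not overlap, and 19.3, 21.8 and 27.3 in LP-STD and 16.4, 19.1 and 23.1 in STD-STD, which did. MRPL28 was at 0.49 ± 0.13 (adjusted p = 0.112). The mitochondrial ribosomal median was 0.078 without STD replicate 1 and 0.041 in set 3. Of 37 ribosome biogenesis genes none passed and 28 lay above 0 (47.1% of all genes). Their median of 0.11 rested on single libraries, being -0.005 without STD replicate 2, 0.177 without LP replicate 6, -0.002 without libraries 8 and 9 and 0.007 in set 3.

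BTC (betacellulin), a ligand of the EGF family that acts through ERBB receptors, had the largest positive interaction past the threshold, at 1.81 ± 0.40 (adjusted p = 0.0317). It lies at 8:70645721-70697538. The LP libraries were 14.31 to 40.09 CPM with a median of 24.5, and the STD libraries 41.98 to 75.02 with a median of 50.0. LP-STD was 16.35 to 72.13 CPM with a median of 35.1, and STD-STD 8.758 to 39.79 with a median of 19.0. Every LP and every STD-STD library was below every STD library. In LP-STD the first run averaged 47.94 CPM, against 25.34 and 33.35 in the others, while the runs of STD-STD averaged 15.74, 19.85 and 27.18. The interaction was accordingly 2.66 in set 1 and 1.41 and 1.35 in sets 2 and 3, and it was 1.77 with adjusted p = 0.0534 without STD-STD replicate 4.

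Of the 10 tested genes of the EGF and ERBB list BTC was positive past the threshold (0.155% of all genes). In this list 6 lay above 0, a share near the 47.1% of all genes. Their median of 0.13 was 0.196 without LP replicate 2 and 0.268 without libraries 8 and 9. Among the ligands EREG (epiregulin) was at 1.01 ± 0.40 (adjusted p = 0.421). Among the receptors ERBB3 was at 0.35 ± 0.12 (adjusted p = 0.337) and ERBB4, with an average log2 CPM of -2.29, at -3.03 ± 1.33 (0.514). The receptor values had no common direction.

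NMRK2, the muscle nicotinamide riboside kinase, a step in making NAD from a vitamin B3 form (2:74786642-74791317), had an interaction of 1.58 ± 0.37 (adjusted p = 0.0446). Its level was 18.1, 30.1 and 39.1 CPM in LP, below every library of the other 3 groups. It was 60.0, 93.7 and 158 CPM in STD, 58.4, 82.8 and 165 in LP-STD, and 46.0, 104 and 152 in STD-STD. These last 3 groups overlapped. The change between periods was -0.01 (log2) in the standard history and 1.56 in the low protein history. The first-period difference was -1.75 ± 0.31 and the later one -0.17 ± 0.21. Of the 14 tested NAD salvage genes NMRK2 was positive past the threshold (0.155% of all genes) and 5 lay above 0 (47.1%). Their median was -0.015, or -0.068 without LP replicate 5 and 0.02 without STD replicate 4. NADSYN1 was at 0.37 ± 0.14 (adjusted p = 0.409) and NAMPT at 0.55 ± 0.25 (0.53).

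CHPT1, a choline phosphotransferase of phosphatidylcholine synthesis (5:82500925-82544390), had a higher mean in the second period in both histories. It was 31.3, 41.6 and 47.4 CPM in LP and 48.7, 53.0 and 61.1 in STD, then 57.6, 70.1 and 82.2 in LP-STD and 51.5, 60.1 and 77.5 in STD-STD. LP stood wholly below STD and wholly below LP-STD, while LP-STD and STD-STD overlapped. The change was 0.79 (log2) in the low protein history and 0.22 in the standard history, an interaction of 0.57 ± 0.13 (adjusted p = 0.0393).

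LTA4H, the leukotriene A4 hydrolase (5:87486552-87518520), was at 0.61 ± 0.13 (adjusted p = 0.0268). It averaged 47.7 ± 6.05 CPM in LP, 62.9 ± 9.23 in STD, 49.2 ± 7.64 in LP-STD and 42.6 ± 5.59 in STD-STD, and all 4 groups overlapped. The change between periods was -0.56 (log2) in the standard history and 0.05 in the low protein one. EXOC7, a subunit of the exocyst that tethers secretory vesicles (12:5331495-5356416), was at 0.44 ± 0.10 (adjusted p = 0.0393). EXOC7 ran from 38.2 to 41.8 CPM in LP and from 45.7 to 51.1 in STD. In the second period it ran from 39.4 to 55.5 CPM in LP-STD and from 36.8 to 51.0 in STD-STD. GLRX3, a glutaredoxin of iron-sulphur cluster handling (14:139072554-139108063), was at 0.46 ± 0.11 (adjusted p = 0.0446), with 52.9 ± 5.21 CPM in LP, 64.7 ± 6.75 in STD, 59.5 ± 5.91 in LP-STD and 53.0 ± 6.76 in STD-STD.

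**Figure D4:**
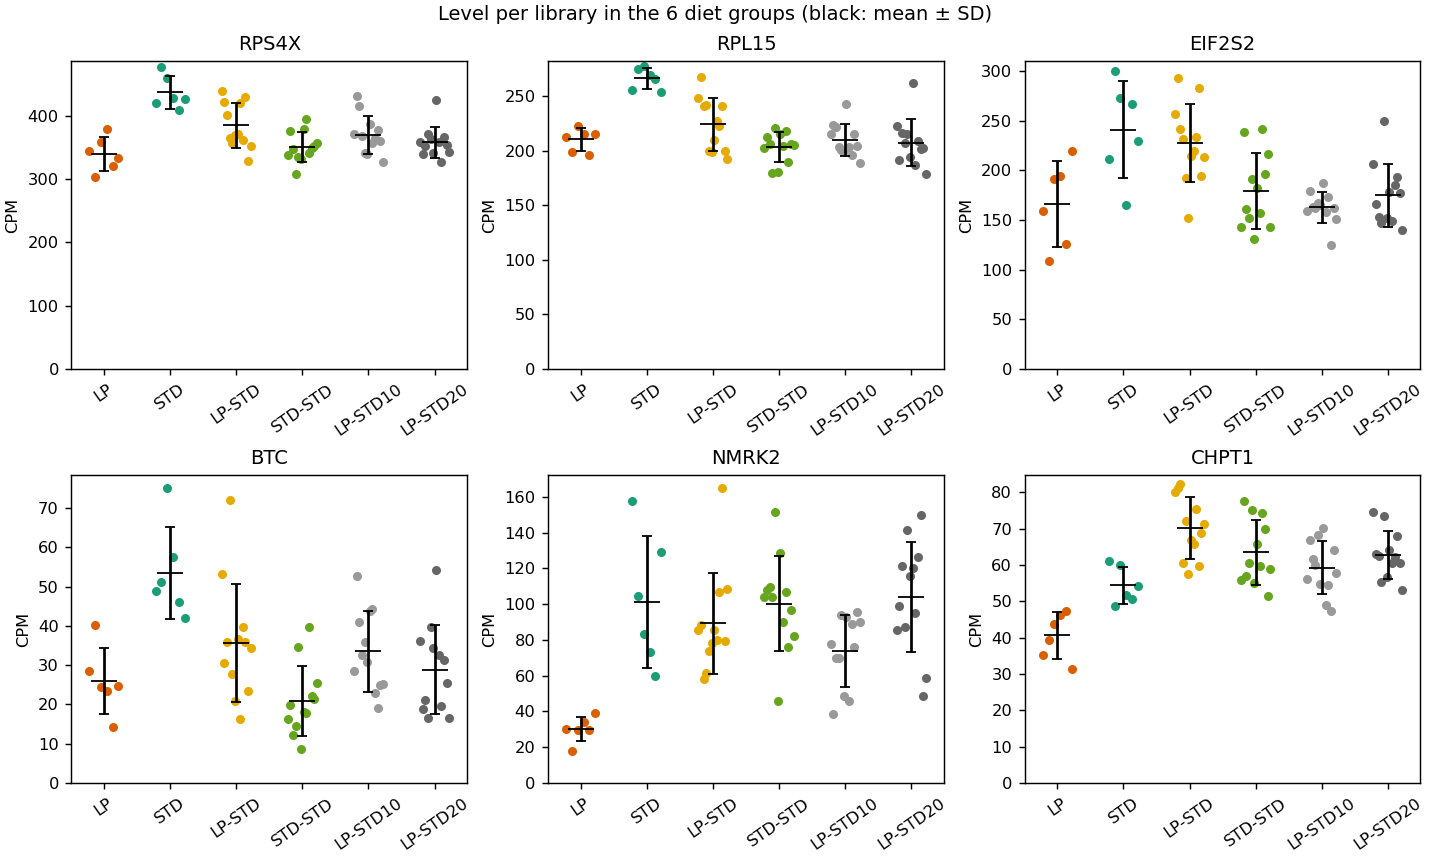
Level (y axis, CPM, from 0) of RPS4X, RPL15, EIF2S2, BTC, NMRK2 and CHPT1 in every library of 6 diet groups (x axis), with the mean ± SD in black. STD stands above LP in each panel, wholly so in all but EIF2S2, and LP-STD and STD-STD overlap in each.

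The lysine groups began on the low protein diet and received 10% or 20% more digestible lysine in weeks 5 to 8, and each can take the place of LP-STD in the contrast. These contrasts share the LP, STD and STD-STD libraries, and so the whole first-period difference, with the first. Their values are therefore set side by side and not counted as agreement. RPS4X was 0.50 with LP-STD, 0.44 ± 0.09 with LP-STD10 and 0.39 ± 0.09 with LP-STD20. BTC was 1.81, 1.72 ± 0.40 and 1.51 ± 0.40, and NMRK2 was 1.58, 1.31 ± 0.37 and 1.80 ± 0.37. EIF2S2 was at 0.87, 0.39 ± 0.19 and 0.50 ± 0.19, its medians being 226 CPM in LP-STD, 162 in LP-STD10 and 172 in LP-STD20. The difference between these contrasts was not tested. Of the 21 positive genes past the threshold, 20 had a higher fitted level in LP-STD than in STD-STD. By group medians of CPM, 16 of the 21 were higher in LP-STD10 than in STD-STD, and 13 in LP-STD20. The count by medians for LP-STD and the like shares over all genes were not computed. The 20 is thus a different measure from the 16 and 13 and forms no series with them.

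CDHR5, a cadherin of the brush border of gut and kidney epithelium (2:376449-382713), was negative past the threshold at -6.46 ± 1.48 (adjusted p = 0.0393), on very few reads. STD replicate 1 had 3 counts and the other STD libraries 0, which allows no fold against this group. LP ran from 0 to 16 counts and LP-STD from 0 to 6. STD-STD ran from 0 to 19 counts in 11 libraries and reached 104 counts, or 2.997 CPM, in replicate 4. Without STD-STD replicate 4 the value was -5.43 and the adjusted p 0.0987. The same library had 2542 counts of PCK1 (73.24 CPM), a gluconeogenic enzyme of liver, kidney and fat, against 0.6409 to 8.997 CPM in the other STD-STD libraries, and 65 counts of VIL1 (villin). PCK1 was among the adipocyte markers, of which 7 of 9 tested lay above 0 (47.1% of all genes), with a median of 0.09. The adipocyte median ranged from -0.065 to 0.235 when each first-period library was left out. It was 0.701, -0.09 and -0.424 with the second period from sets 1, 2 and 3. Of 17 tested liver, kidney and gut genes 1 was negative past the threshold (0.0074% of all genes) and 13 lay below 0 (52.9%). The list median was -2.002, or -1.22 without STD-STD replicate 4. Of its 26 genes with counts, 19 averaged under 1 CPM. The list summed to 24.69 to 36.48 CPM in LP, 27.79 to 40.12 in STD, 36.99 to 68.66 in LP-STD and 32.83 to 210.7 in STD-STD. FGB (fibrinogen beta chain) was at -4.51 ± 1.30 (adjusted p = 0.154), with 630 counts in STD-STD replicate 10 and no more than 53 in the others. The part of such RNA in the result for CDHR5 was not tested.

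The 10 negative genes of lowest p with an average log2 CPM of 1 or more did not pass. KCNJ2, an inward rectifier potassium channel that sets the resting potential of muscle, came nearest at -0.79 ± 0.20 (adjusted p = 0.0838). It was 28.1, 39.1 and 46.7 CPM in LP and 16.1, 26.7 and 36.8 in STD, then 19.0, 21.7 and 30.2 in LP-STD and 18.2, 25.4 and 36.0 in STD-STD. All of these groups overlapped. ADAM12, a metalloprotease of muscle regeneration, was at -0.89 ± 0.25 (adjusted p = 0.148). Its LP libraries, 8.77 to 13.4 CPM, lay wholly above its STD libraries, 5.53 to 7.60 CPM (0.326% of all genes). MSRB1, a selenoprotein that repairs oxidised methionine, was at -0.87 ± 0.25 (0.148). PIDD1 (-0.68 ± 0.19), ERBIN (-0.35 ± 0.10), TCTN1 (-0.57 ± 0.16), NKTR (-0.36 ± 0.10), MPZL1 (-0.40 ± 0.12) and the carbonic anhydrase gene CA2 (-2.199 ± 0.64) had adjusted p from 0.135 to 0.168. LP-STD lay wholly below LP in MPZL1 (1.46% of all genes), and STD-STD wholly above STD in CA2 (1.27%). CLDN15 (-1.12 ± 0.33, 0.164) had 17.31 CPM in LP replicate 3, with 3.639 to 5.228 CPM elsewhere in LP, and without each first-period library it ranged from -1.24 to -0.51.

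The amino acid response genes, the targets of ATF4 and its partners, had the highest median of the lists with 5 or more tested members. None of 36 passed in edgeR, 11 had an unadjusted p under 0.05, all positive (4.81% of all genes), and 33 lay above 0 (47.1%), with a median of 0.78. The median first-period difference was -0.415 and the median second-period difference 0.48. SLC38A2 (SNAT2), an amino acid transporter induced when amino acids are short, was nearest at 1.14 ± 0.28 (adjusted p = 0.0712). SLC7A5 (LAT1), which carries leucine, was at 1.67 ± 0.49 (0.178), the hormone gene FGF21 at 2.69 ± 0.75 (0.148) and ATF4 itself at 0.67 ± 0.21 (0.22). The list median was 1.08 in set 1 and 0.598 and 0.585 in sets 2 and 3, and it ranged from 0.69 to 1.115 when each first-period library was left out. The list summed to 1426 to 4018 CPM in LP, 2143 to 4587 in STD, 2287 to 4618 in LP-STD and 1947 to 3431 in STD-STD, which overlap.

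**Figure D5:**
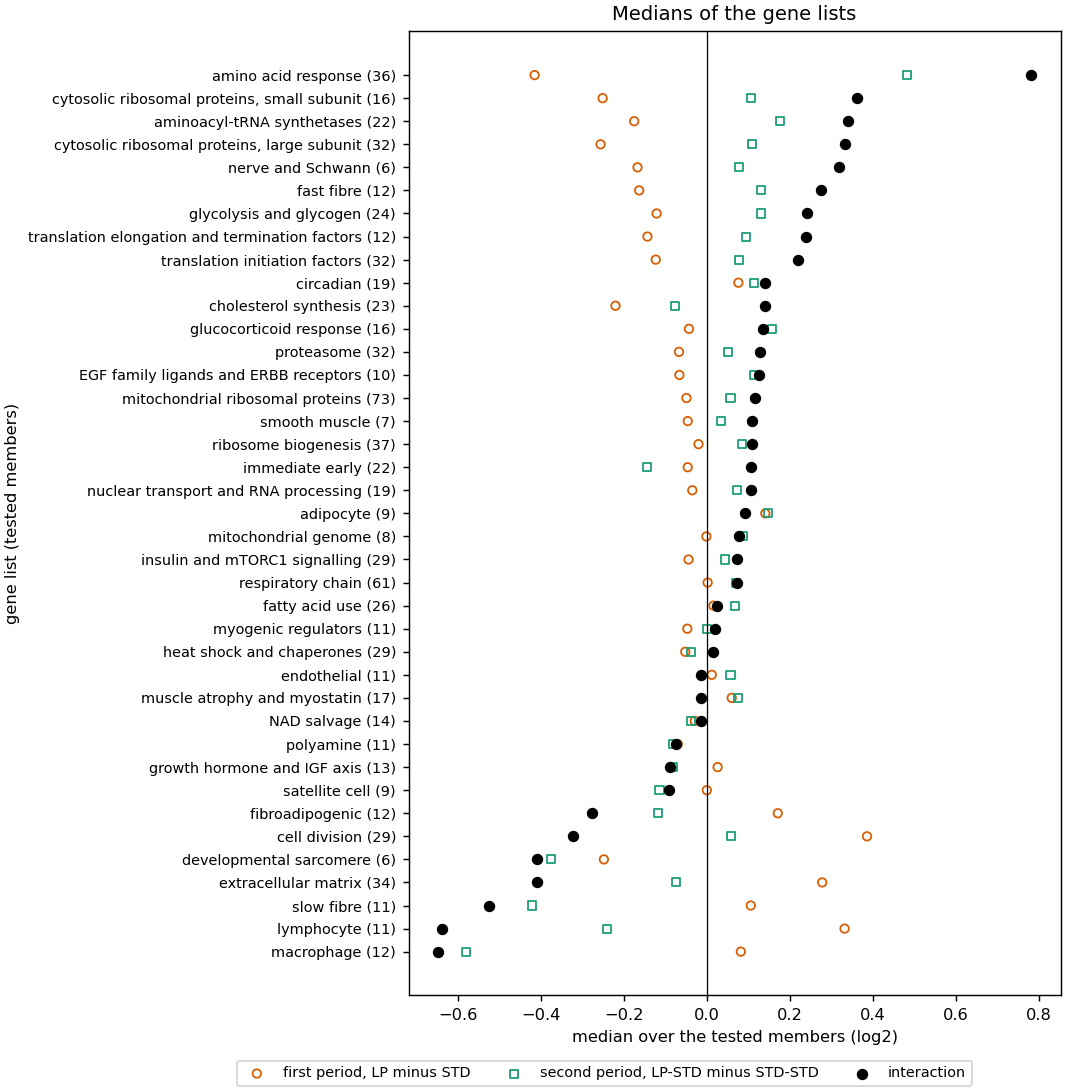
Median log2 value over the tested members (x axis) of each gene list with 5 or more of them (y axis, number in brackets), for the interaction (black), the first-period difference (orange circles) and the second-period difference (green squares). The liver, kidney and gut list, at -2.002, is not drawn, the ribosomal subunits are drawn apart, and the amino acid response lies highest at 0.78.

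Contractile genes differed by fibre type in sign but none passed. Of all genes 47.1% lay above 0, 52.9% below, and 8.66% had an unadjusted p under 0.05. Of 12 fast fibre genes 11 lay above 0 (median 0.28, 4 with an unadjusted p under 0.05), among them TPM1 at 0.68 ± 0.20 (adjusted p = 0.164), MYBPC2 at 0.41 ± 0.15 (0.388) and ACTN3 at 0.40 ± 0.17 (0.472). Of 11 slow fibre genes 10 lay below 0 (median -0.525, 2 with an unadjusted p under 0.05), among them the slow calcium pump ATP2A2 at -0.70 ± 0.26 (0.388) and the slow troponins TNNT1 at -0.69 ± 0.33 (0.554), TNNC1 at -0.59 ± 0.32 (0.616) and TNNI1 at -0.59 ± 0.32 (0.622). The slow fibre list summed to 7503 to 18710 CPM in LP, 6775 to 17910 in STD, 4421 to 9038 in LP-STD and 4262 to 13080 in STD-STD, which overlap. Its median ranged from -0.86 without STD replicate 4 to -0.39 without LP replicate 1. In bulk muscle fewer cells of a type and less RNA per cell cannot be told apart. The myosin heavy chain genes MYH1, MYH2, MYH4 and MYH7 were not analysed here.

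Among energy genes the 24 tested glycolysis and glycogen genes had a median of 0.24, with 21 above 0 (47.1% of all genes), 7 at an unadjusted p under 0.05 (8.66%) and none past the threshold. PFKFB1, which sets fructose 2,6-bisphosphate, was at 0.50 ± 0.17 (adjusted p = 0.314), and PHKA1, of phosphorylase kinase, at 0.60 ± 0.21 (0.337). The glycolysis and glycogen median was 0.15 without STD replicate 3. The 61 respiratory chain genes had a median of 0.07, or 0.011 without STD replicate 1. The 26 fatty acid use genes had one of 0.02, which was -0.065 without STD replicate 4, 0.065 without STD replicate 3 and 0.172 without libraries 8 and 9. In the insulin and mTORC1 list, with a median of 0.07 over 29 genes, the insulin-responsive glucose transporter SLC2A4 was at 0.64 ± 0.26 (0.451) and PIK3R1 at 0.73 ± 0.28 (0.414). The growth hormone and IGF list (13 genes, median -0.09) had no gene with an unadjusted p under 0.05, its IGF1R being at 0.63 ± 0.32 (0.58). The muscle atrophy and myostatin list (17 genes, median -0.01) had none either, with the myostatin antagonist FST at -0.56 ± 0.32 (0.667) and FBXO30 at 0.27 ± 0.15 (0.658). The insulin and mTORC1 median was 0.114 without LP replicate 2, the growth hormone and IGF median -0.023 without LP replicate 1 and -0.138 without LP replicate 4, and the atrophy median -0.076 without LP replicate 6 and 0.025 without STD replicate 2.

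The developmental sarcomere list (6 genes) had a median of -0.41, which was -0.763 without STD replicate 2 and -0.19 without LP replicate 5, and -1.181, -0.233 and 0.192 in sets 1, 2 and 3. In it MYBPH was at 1.53 ± 0.41 (adjusted p = 0.125) and XIRP1 at 2.25 ± 0.79 (0.337), while the fetal actin ACTC1 was at -1.40 ± 0.64 (0.53). Heat shock and chaperone genes (29 tested) had a median of 0.015, with the chaperonin subunit CCT7 at 0.26 ± 0.08 (0.174). Of the clock genes (19 tested, median 0.14) BHLHE40 was at -1.18 ± 0.38 (0.26) and NR1D1 at -0.83 ± 0.40 (0.554). The clock median was 0.054 without STD replicate 3, and the chaperone median ranged from -0.047 (STD replicate 2 left out) to 0.078 (LP replicate 4 left out). The immediate early genes had a median of 0.11 over 22, with EGR1 at -2.35 ± 0.84 (0.35) and FOS at -2.06 ± 0.98 (0.554). The immediate early median ranged from -0.034 (STD replicate 4 left out) to 0.208 (LP replicate 2 left out). EGR1 was 20.1 and 36.09 CPM in LP replicates 1 and 2 and 5.596 to 9.083 CPM elsewhere in LP, and without these libraries (8 and 9) FOS was at 0.61.

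Connective tissue genes lay lower in the interaction, without any past the threshold. Of 34 extracellular matrix genes 32 lay below 0 (52.9% of all genes), 11 with a negative value at an unadjusted p under 0.05 (3.85% of all genes), with a median of -0.41. The matrix protein POSTN (periostin) was at -1.51 ± 0.49 (adjusted p = 0.26), the collagenase MMP2 at -0.52 ± 0.16 (0.217) and LUM (lumican) at -0.65 ± 0.24 (0.388). The list summed to 14120 to 23690 CPM in LP, 10870 to 16000 in STD, 6988 to 15240 in LP-STD and 7747 to 17190 in STD-STD. The fibroadipogenic markers (12 tested) had a median of -0.28 and summed to 1155 to 1620 CPM in LP, 936.9 to 1352 in STD, 831.7 to 1621 in LP-STD and 855.0 to 1520 in STD-STD. Cell division genes were below 0 in 27 of 29 (52.9% of all genes), with a median of -0.32 and MCM5 at -0.57 ± 0.27 (0.553).

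Markers of immune cells had medians away from 0, and their part in the results above was not tested. All 12 tested macrophage genes lay below 0 (52.9% of all genes), none with an unadjusted p under 0.05, with a median of -0.65. CD68 was at -0.96 ± 0.51 (adjusted p = 0.616) and C1QB at -0.76 ± 0.44 (0.665). The macrophage list summed to 92.83 to 165.9 CPM in LP, 82.49 to 143.8 in STD, 63.63 to 303.3 in LP-STD and 72.37 to 402.9 in STD-STD, and 1 of its 13 genes, LYZ, was at 0 in all 36 libraries. Its median was -1.25 in set 1, -0.21 in set 2 and -0.58 in set 3. Of 11 lymphocyte genes 7 lay below 0, a share near the 52.9% of all genes, and their values ran from -1.305 (CD4, ± 0.47, adjusted p = 0.363) to 1.221. Their median of -0.64 was -0.397 without LP replicate 3 and -0.792 without STD replicate 4, and -1.021, -0.275 and -0.764 in sets 1, 2 and 3. CD8A was at -0.81 ± 0.37 (0.538). The lymphocyte list summed to 43.58 to 71.28 CPM in LP, 39.97 to 55.45 in STD, 35.23 to 59.34 in LP-STD and 30.56 to 72.98 in STD-STD. The erythroid genes averaged under 1 CPM in 5 of 5, and the list summed to at most 2.981 CPM in LP, 2.518 in STD, 0.9662 in LP-STD and 1.578 in STD-STD. The endothelial median was -0.01 over 11 genes, or -0.057 without LP replicate 6 and 0.027 without STD replicate 4.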

How the data were processed

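The authors deposited raw read counts per gene symbol, whole numbers for 18158 genes in 67 libraries. Per the submitters' processing notes the build was Sscrofa11.1 and DESeq2 was among the tools. The sources used here name no aligner, counter or strand setting, so reads of overlapping genes cannot be told apart. Even low counts outnumbered odd ones (18638 values of 2 against 3454 of 1).

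The test was edgeR 4.0.16 under R 4.3.3, a robust quasi-likelihood F test after filterByExpr and TMM scaling, over all 67 libraries and 7 groups, one of them (BL) of unstated meaning. Adjustment was Benjamini-Hochberg over 13517 genes, threshold 0.05. Alternatives used limma 3.58.1 and DESeq2 1.42.0, and 1 that left out STD-STD replicate 4 was chosen after seeing the data. CPM of single genes are counts scaled to the library's total over the tested genes times its TMM factor. Sums and averages over gene lists, and the Y-linked sums, are scaled to the library's total in the table. The test was also tried on simulated data with changes set in LP-STD alone. It recovered 29.9% of the genes changed 1.5-fold, 73.1% at 2-fold and 98.5% at 4-fold. In the same data 13 unchanged genes passed the threshold.

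Named genes were every gene past the threshold, the 10 lowest-p negative genes with an average log2 CPM of at least 1, and up to 4 genes of lowest p per list (12 for ribosomal proteins). The comparison, lists and members were chosen with earlier results of these data known. The simple differences are descriptions from the same fit. Coordinates and names are from the RefSeq table of Sscrofa11.1, which held 93.6% of the names. No pair of these libraries correlated above 0.991 across genes, and none was counted as a repeat. The labels do not tie libraries to litters or named animals, so p-values measure the spread between libraries.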

Additional observations from a re-analysis of the deposited data

Results flagged for a closer look

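In the edgeR fit over all libraries the change between periods differed between the diet histories in 22 genes, by the test of the difference itself (adjusted p from 0.0146 to 0.0446). These calls depended on the fit. With the 4 libraries of a run treated as correlated (limma voom) none of the 22 passed, the count over all genes being 0, with 857 genes at an unadjusted p under 0.05. Over the alternative fits RPL15 passed in 26 of 34, NMRK2 in 8 of 34, MRPL20 in 8 of 33 and CDHR5 in 6 of 29. In log2 the 13 ribosomal genes were RPS4X 0.495, RPL15 0.481, RPL7 0.421, RPL8 0.522, RPL12 0.520, RPS15 0.525, RPL13 0.452, RPL29 0.503, RPL10A 0.595, RPLP0 0.482, RPL4 0.434, RPS2 0.50 and RPS3A 0.366. The others were EIF2S2 0.875, LTA4H 0.606, BTC 1.811, CHPT1 0.568, EXOC7 0.440, MRPL20 0.452, GLRX3 0.458, NMRK2 1.579 and CDHR5 -6.459, a fitted value that is no measure of size because STD held 3 counts in all.

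Libraries far from the rest of their group were looked for in 44 groups of 6, by the gap to the nearest library over the group's range, a measure by which chance picks out about 1 in 20 groups, and 2 were found. CDHR5 was at 0.0864 CPM in STD replicate 1 and at 0 in the other STD libraries. RPS2 was at 1426 CPM in STD replicate 6 and between 1735 and 1875 CPM in the others.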

How the results depend on the processing

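Genes past the threshold were 22 with RLE factors, 15 without a count filter, 21 at a CPM of 1, 24 with the library set as a block and 42 at a threshold of 0.10. They were 73 with limma voom and quality weights, 77 with DESeq2 and 52 with the 36 libraries alone. They were 9 with Y-linked counts as a covariate, 2 with the second period from set 1, and 0 from set 2 or set 3, with correlated runs, with counts summed over runs and without libraries 8 and 9, with 565, 585, 857, 482 and 1017 at an unadjusted p under 0.05. Leaving out 1 first-period library, 1 run or STD-STD replicate 4 gave 0 to 27. The cause of these changes was not tested. With the replicate number as a block 7 passed; same-numbered libraries deviated together by correlations of -0.242 to 0.314, and at most 2 libraries in any pair of groups correlated best with their own number, so the numbers do not pair them.

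No gene past the threshold changed sign in an alternative that fitted it, though CDHR5 was filtered out of some. Signs changed for FOS (0.614 without libraries 8 and 9), PCK1 (0.19 with set 3), RPL3 (0.028 with the Y-linked covariate, 0.004 with correlated runs, 0.046 and 0.04 with sets 2 and 3, 0.025 without libraries 8 and 9) and RPL23A (0.349 with set 1). With 1 library or run left out, RPL3 ranged from -0.069 to 0.042 and RPL23A from -0.253 to 0.108. Depth limits CDHR5 and the liver, kidney and gut genes.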
